A study of Mus musculus with 5 samples.

Results

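Col12a1, Col14a1, Col16a1 and Col22a1 encode collagens XII, XIV, XVI and XXII, members of the family of fibril-associated collagens with interrupted triple helices (FACIT). They were chosen by symbol among the targets of a whole-transcriptome probe set, and all 4 of them were measured, out of 19346 targets in the series. RNA came from coronal sections of mouse knees at embryonic stage E14.5, profiled in hand-drawn regions of interest with the NanoString GeoMx spatial platform, in which barcodes are released by light from the probes bound inside each region and are then sequenced. The control animals (n = 2) carried the Prrx1-Cre driver alone, and the GOF animals (n = 2) carried Prrx1-Cre together with Pdgfra GOF, an allele that gives gain of function to a receptor of platelet-derived growth factor. Prrx1-Cre acts in limb bud mesenchyme, and both genotypes shared it, so its own effect was not compared.

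FACIT collagens do not build fibrils by themselves. Many of them attach to the surface of fibrils made of collagens I, II, III, V or XI. They link these fibrils to other matrix molecules, which bears on fibril spacing and tissue stiffness. Collagen XII is abundant in tendon, ligament and the layers around bone and cartilage, and collagen XIV limits fibril growth in developing tendon. Collagen XVI is found in skin and also in cartilage, in thin fibrils around chondrocytes. Collagen XXII lies at tissue junctions, among them the junction of muscle with tendon and the surface of articular cartilage. Collagen IX, the best known FACIT of cartilage, is made of the products of Col9a1, Col9a2 and Col9a3 and covers collagen II fibrils.

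In the mouse reference assembly GRCm38.p6 (the mm10 build), Col12a1 lies at chr9:79598987-79721141 and Col16a1 at chr4:130047817-130099277. Col14a1, at chr15:55307644-55520803, and Col22a1, at chr15:71795795-72150979, share a chromosome and lie 16.3 megabases apart. Where each probe binds within its transcript is not stated in these sources.

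Regions had been chosen by morphology on sections stained for DNA and for Sox9 protein, a chondrocyte factor, so cartilage content was part of the choice. The tags of the regions name border-zone cartilage (60 regions), inter-joint perichondrium (61), inter-joint space (33), fusion (17), and a reference cartilage and a reference mesenchyme region in each animal (4 regions each). No label defines these names. The fusion tag was used in GOF animals alone, so the GOF space regions may not cover the same tissue as the control space regions. Total counts per region lay between 55470 and 617053, with a median of 217175. The negative probe, which binds no mouse transcript and measures background, had a median of 2.81 normalised counts. All levels are the authors' normalised counts averaged over the regions of an animal, and each n is a number of animals. A lower level in a region can come from fewer cells of a type or from less RNA per cell, which cannot be told apart here.

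The name of the set as collagens of fibrous tissue held for some members only. Marker genes placed the region types: the summed level of 13 chondrocyte markers was 12930 and 13230 in the control reference cartilage, 5796 and 6249 in control border-zone cartilage, and 1048 and 970 in control inter-joint space. The sum of 9 interzone markers was 745 and 802 in control space, against 180.7 and 207 in control border-zone cartilage. Against this order, Col12a1 was low in cartilage and high in the soft tissue of the joint, whereas Col16a1 was highest in reference cartilage in both genotypes. Col14a1 was low in both reference types, and Col22a1 was near background in cartilage.

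**Figure D1:**
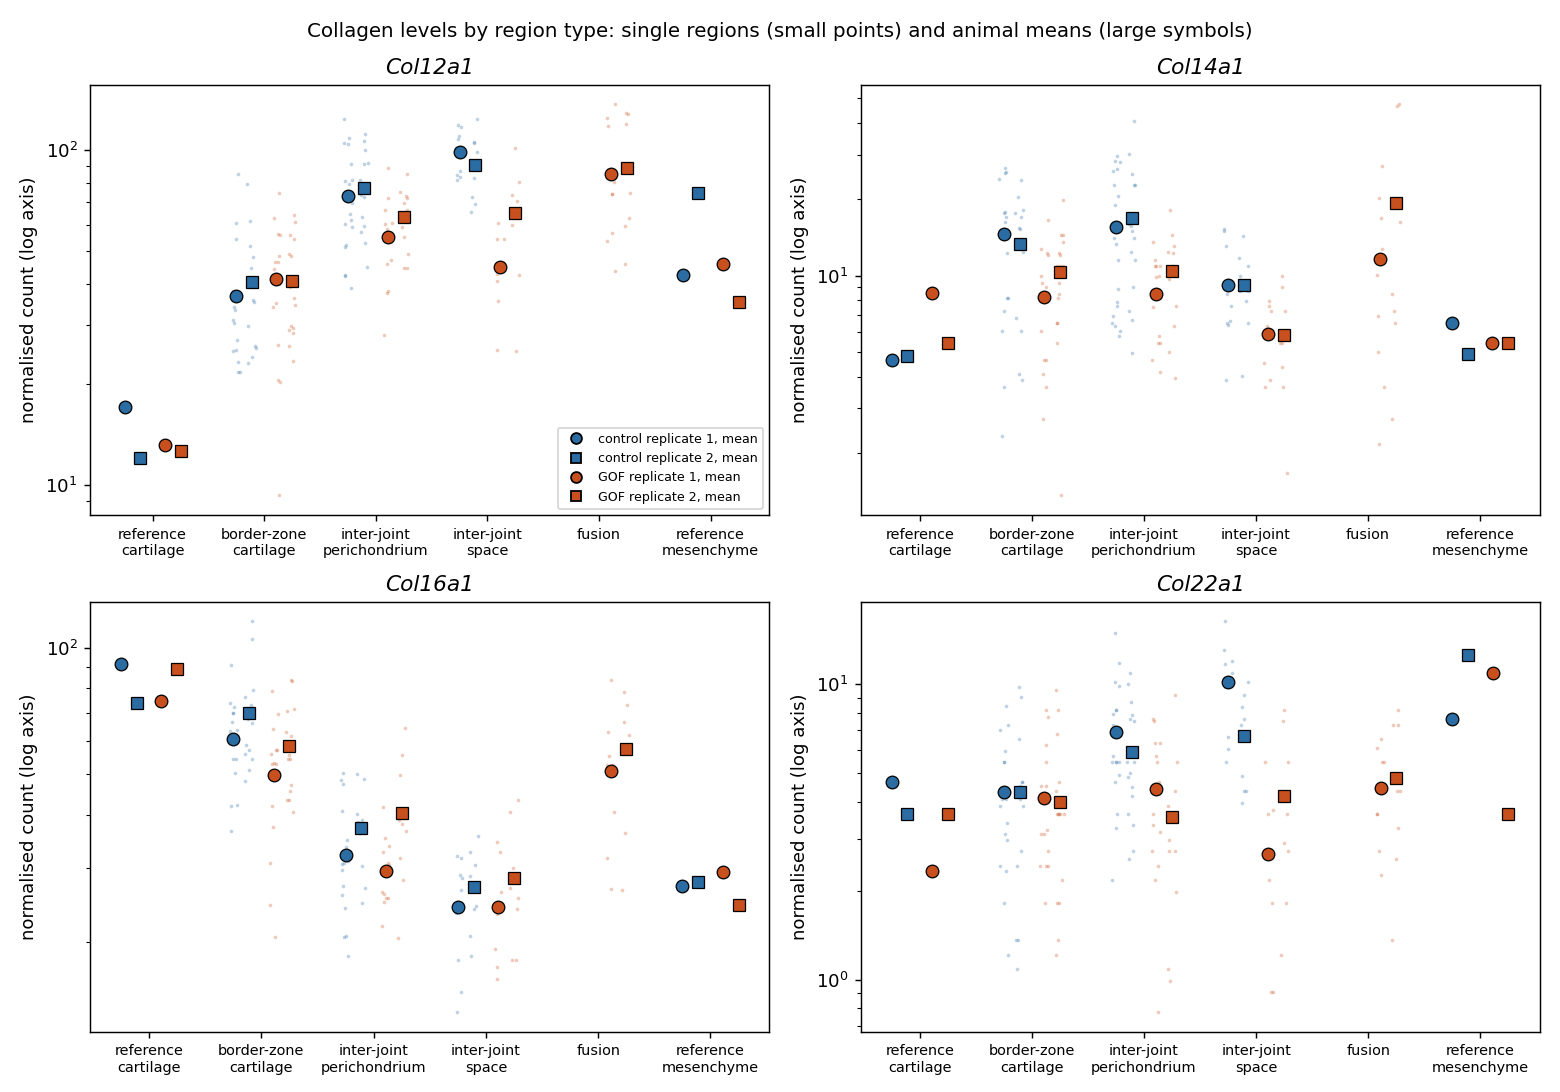
Normalised counts (log axis) of the 4 collagens in each region type. Small points are single regions and large symbols are animal means (circles replicate 1, squares replicate 2; blue control, orange GOF); reference types have 1 region per animal. Col12a1 runs from 12.1 in reference cartilage to 99.01 in control inter-joint space, and Col16a1 runs the other way, from 24.2 in control space to 91.7 in reference cartilage.

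The first question was where each collagen lies in the control knee. Col12a1 was 36.7 and 40.3 in the border-zone cartilage of control replicates 1 and 2, 73.2 and 77.3 in perichondrium, and 99.01 and 90.2 in inter-joint space. Each animal showed the same order of these types, and no animal of one type overlapped those of another. The share of all targets separated in this way between region types was not counted. With 2 animals per genotype, 37.07% of all targets did not overlap between genotypes in perichondrium and 38.56% in space. The reference cartilage of the controls was lowest, at 17.1 and 12.1. Reference mesenchyme read 42.4 and 74.5, so it could not be placed relative to perichondrium beyond the spread between animals. In limma, Col12a1 was 1.35 higher in space than in border-zone cartilage on the log2(value + 1) scale (SE 0.22, adjusted p = 0.00122). The perichondrium exceeded border-zone cartilage by 0.99 (SE 0.22, adjusted p = 0.0849), which missed the threshold, and space exceeded perichondrium by 0.36 (SE 0.22, adjusted p = 1).

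Col16a1 had the opposite order. The control values were 60.6 and 69.8 in border-zone cartilage, 32.2 and 37.3 in perichondrium and 24.2 and 26.9 in space. Reference cartilage stood above all of these, at 91.7 and 73.7, and reference mesenchyme, at 27.2 and 27.7, lay beside the space. Animals did not overlap between border-zone cartilage and perichondrium or between perichondrium and space, again without a share over all targets to set beside this. The difference of space from border-zone cartilage was -1.32 (SE 0.18, adjusted p = 0.000207 in limma). For perichondrium it was -0.88 (SE 0.18, adjusted p = 0.0519), which missed the threshold of 0.05. Space and perichondrium differed by -0.43 (SE 0.18, adjusted p = 1).

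Of the 4 collagens, 2 were thus called by limma between control space and border-zone cartilage, 1 higher and 1 lower, where 1.3% of all targets were called. None was called by limma between control perichondrium and border-zone cartilage, where 0.186% of all targets were. Between control space and perichondrium no target was called by limma (0% of 19346, with 218 at an unadjusted p under 0.05, and with 1.6%, 0.889% and 1.1% called by a joint-region fit, edgeR and DESeq2). With any 1 control animal left out, both calls between space and border-zone cartilage were lost. The adjusted p of Col12a1 was then 0.127 without control replicate 1 and 0.0506 without control replicate 2, with log2 differences of 1.21 and 1.5. That of Col16a1 was 0.0843 and 0.0938, with log2 differences of -1.32 and -1.31.

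Col14a1, which was low throughout, followed neither order. Its control levels were 14.6 and 13.4 in border-zone cartilage, 15.6 and 16.96 in perichondrium, and 9.20 and 9.20 in space. Perichondrium was highest, border-zone cartilage close behind it, and space lower than both in each animal. In the reference regions Col14a1 read 4.66 and 4.84 in cartilage and 6.53 and 4.90 in mesenchyme, between 1.48 and 2.20 times the negative probe. No difference of Col14a1 between control region types passed the limma threshold. The largest was -0.64 for space minus perichondrium (SE 0.25, adjusted p = 1). Within perichondrium, the control regions that carried the general interzone tag had means of 6.36 (2 regions) and 12.2 (3 regions), against 16.6 (17 regions) and 18.1 (13 regions) for the others.

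Col22a1 was the faintest of the set. Averaged over the 22 animal and region type means it had 5.43 normalised counts, below a limit of 2 times the negative probe (5.68), which the other 3 collagens passed. Its control levels were 4.30 and 4.32 in border-zone cartilage, 6.91 and 5.89 in perichondrium, and 10.2 and 6.68 in inter-joint space. The order matched that of Col12a1 in both animals. Reference mesenchyme had 7.61 and 12.5, which overlapped the space, and reference cartilage 4.66 and 3.63. The difference of space from border-zone cartilage was 0.88 (SE 0.37, adjusted p = 0.70 in limma), which may be understated for a target so near background. Median recovered counts per region were 12 and 8 in control space, so single regions rest on few counts.

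A fit restricted to the joint region types and fusion, in which the reference regions no longer enter the estimate of spread, called more. This joint-region fit called 7.43% of all targets between control space and border-zone cartilage, among them Col12a1, Col16a1 and also Col22a1 (adjusted p = 0.000428). Between control perichondrium and border-zone cartilage it called 2.7% of all targets, with Col12a1 (adjusted p = 3.92e-08) and Col16a1 (adjusted p = 7.57e-07) among them.

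The next question was whether the Pdgfra allele changed the 4 collagens within a region type. In inter-joint space Col12a1 read 99.01 and 90.2 in control animals, and 44.9 and 64.9 in GOF animals. Both GOF animals lay below both controls, and 10 of the 15 GOF space regions lay below the lowest of the 18 control space regions (65.3). Regions of an animal are not replicates, and such counts of regions were not made over all targets. The group means were 94.6 ± 6.2 and 54.9 ± 14.2 (SD, n = 2 each), and the log2 difference was -0.85 (SE 0.23, 95% interval -1.32 to -0.38). After adjustment over all targets in limma it did not pass (adjusted p = 0.304). Without GOF replicate 1 the difference was -0.61, and without GOF replicate 2 it was -1.09.

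Col22a1 in the same regions was 10.2 and 6.68 in controls and 2.66 and 4.17 in GOF animals. The groups did not overlap, and 11 of the 15 GOF regions lay below the lowest control region (3.96). That count has no share over all targets beside it and lies near background. Of the 18 control regions, 7 were themselves under 2 times the negative probe. Both GOF means were 0.874 and 1.73 times the negative probe, that is, close to background, and the controls were 3.25 and 2.39 times. The log2 difference was -1.17 (SE 0.37, 95% interval -1.94 to -0.40), with an adjusted p of 0.708 in limma.

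Col14a1 was 9.20 in the space of both controls and 5.89 and 5.85 in that of the GOF animals. This gave a difference of -0.57 (SE 0.25, adjusted p = 1). Col16a1 did not share the direction: it was 24.2 and 26.9 in controls and 24.2 and 28.3 in GOF animals, overlapping groups with a difference of 0.02 (95% interval -0.37 to 0.41). So 3 of the 4 collagens had both GOF animals below both controls in inter-joint space, as did 21.3% of all targets. None of the 3 was called by limma, where 0.103% of all targets were. The GOF means of Col14a1 were 2.03 and 2.35 times the negative probe, so its difference is measured close to background.

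Calls in this comparison differed between fits. The joint-region fit called 2.69% of all targets and 3 of the 4 collagens there: Col12a1 (adjusted p = 7.59e-06), Col22a1 (adjusted p = 5.21e-05) and Col14a1 (adjusted p = 0.032). The edgeR quasi-likelihood test on counts summed over the regions of an animal called 1.86% of all targets, Col12a1 (adjusted p = 0.00259) and Col22a1 (adjusted p = 0.00129) among them. Averaging the GOF space and fusion regions together, a setting chosen after seeing the data, brought the difference of Col12a1 to -0.50 and that of Col22a1 to -0.94, neither called by limma.

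Other cell type markers moved in the same regions. The interzone sum was 393 and 473 in GOF space against 745 and 802 in control space. Endothelial markers (6 genes) summed to 50.8 and 52.7 against 37.7 and 36.8, tendon and ligament markers (7 genes) to 221 and 178.5 against 154.9 and 165.6. Blood markers (3 genes) summed to 115.2 and 230 in GOF space against 102.99 and 55.1 in control space, where GOF replicate 1 lay close to control replicate 1. The chondrocyte sum was 1047 and 1357 against 1048 and 970. The part of these shifts in the collagen differences was not tested.

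**Figure D2:**
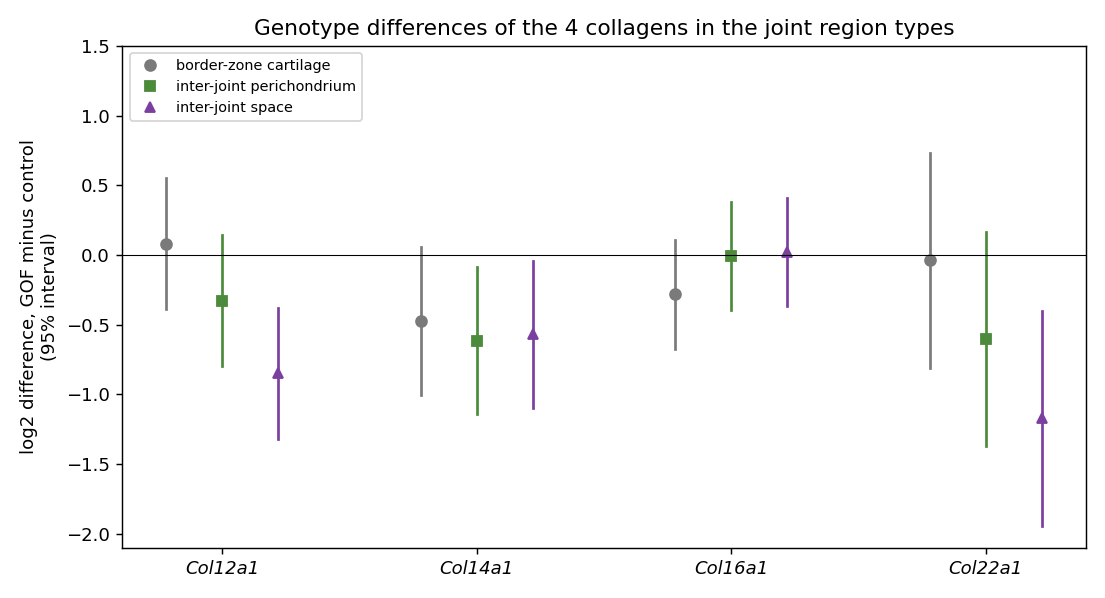
Difference between GOF and control (log2 scale) of the 4 collagens in border-zone cartilage (circles), perichondrium (squares) and inter-joint space (triangles), with 95% intervals from limma, n = 2 animals per genotype. The intervals of Col12a1, Col14a1 and Col22a1 in inter-joint space, and of Col14a1 in perichondrium, lie below 0 before adjustment over all targets. Those of Col16a1 include 0 in each region type.

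In perichondrium the control levels of Col14a1 were 15.6 and 16.96 and the GOF levels 8.51 and 10.4, and the animals did not overlap. The difference was -0.61 (SE 0.25, adjusted p = 1 in limma), and 24 of the 26 GOF regions lay below the control median of 14.1. Such regions are not replicates, and the count has no share over all targets beside it. Col12a1 was 73.2 and 77.3 in controls and 55.03 and 63.2 in GOF animals, a difference of -0.33 (SE 0.23). For Col22a1 the levels were 6.91 and 5.89 against 4.42 and 3.55, a difference of -0.60 (SE 0.37). Col16a1 overlapped, at 32.2 and 37.3 against 29.5 and 40.4, with a difference of -0.0075 (SE 0.19). Both GOF animals lay below both controls for Col12a1, Col14a1 and Col22a1, as they did for 23.7% of all targets.

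None of the 4 was called by limma in perichondrium, where 0.0155% of all targets were. The joint-region fit, which called 1.03% of all targets there, called Col14a1 (adjusted p = 0.0346), and edgeR, with 1.18% of all targets called, did so too (log2 difference -0.68, adjusted p = 0.0242).

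In border-zone cartilage Col14a1 again had lower animals in GOF, at 8.28 and 10.3 against 14.6 and 13.4 in controls. Of the 31 GOF regions, 29 lay below the control median of 15.2, and the difference was -0.47 (SE 0.25, adjusted p = 1 in limma). This count of regions, too, has no share over all targets beside it. Col16a1 was 49.7 and 58.5 in GOF animals and 60.6 and 69.8 in controls, a difference of -0.28 (SE 0.19). Col12a1 was nearly level between genotypes, at 41.3 and 40.6 in GOF against 36.7 and 40.3, a difference of 0.08 (95% interval -0.39 to 0.55). Col22a1 differed by -0.04 (SE 0.37), at 4.128 and 4.004 against 4.30 and 4.32. None was called by limma, where 0.00517% of all targets were. Both GOF animals lay below both controls for Col14a1, Col16a1 and Col22a1, as they did for 22.27% of all targets. For Col12a1 they lay above both, as for 15.08% of all targets.

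Col14a1 was thus lower in both GOF animals than in both controls in each of the 3 joint region types, by -0.57, -0.61 and -0.47. Of all targets, 2.6% had both GOF animals below both controls in all 3 types, and limma called Col14a1 in none of them (adjusted p = 1 in each). In the reference regions this did not hold: reference cartilage read 8.55 and 5.44 in GOF against 4.66 and 4.84 in controls, and reference mesenchyme 5.44 in both GOF animals against 6.53 and 4.90. Background was also not far off in the joint types. In GOF replicate 1 Col14a1 was 2.851 times the negative probe in border-zone cartilage and 2.853 times in perichondrium.

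Whether the genotype effect differed between region types was tested directly. For Col12a1 the effect in space minus that in border-zone cartilage was -0.93 (SE 0.32, unadjusted p = 0.00784, adjusted p = 1 in limma). For Col22a1 it was -1.13 (SE 0.52, unadjusted p = 0.0397, adjusted p = 1), for Col14a1 -0.096 and for Col16a1 0.30. Limma called no target in any of the 3 such comparisons (0% of 19346 in each), with 120, 22 and 21 targets at an unadjusted p under 0.05 for space minus border-zone cartilage, perichondrium minus border-zone cartilage and space minus perichondrium. The edgeR test called 54, 0 and 0 targets, and DESeq2 67, 5 and 2, with none of the 4 collagens among them. The joint-region fit called 0.765% of all targets in the first of these, with Col12a1 (adjusted p = 0.000517) and Col22a1 (adjusted p = 0.0113) among them.

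The same comparisons of region types were made within GOF knees. GOF space minus border-zone cartilage was 0.42 for Col12a1 (SE 0.22, adjusted p = 1), against 1.35 in controls. Col16a1 differed by -1.01 between these types (SE 0.18, adjusted p = 0.00797 in limma), 1 of the 4 collagens called where 0.501% of all targets were. Without GOF replicate 1 the adjusted p of Col16a1 was 0.399, and without GOF replicate 2 it was 0.69. Col14a1 differed by -0.53 and Col22a1 by -0.25, neither of them called by limma.

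For GOF perichondrium minus border-zone cartilage limma called none of the 4, where 0.0103% of all targets were called. The values were 0.58 for Col12a1, 0.07 for Col14a1, -0.61 for Col16a1 and -0.04 for Col22a1. GOF space minus perichondrium called no target in limma (0%), with 94 targets at an unadjusted p under 0.05 and with 0.625%, 0.093% and 0.119% called by the joint-region fit, edgeR and DESeq2. There the differences were -0.16, -0.60, -0.41 and -0.21 in the same order of genes.

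In the GOF reference regions Col12a1 was 13.2 and 12.7 in cartilage and 45.7 and 35.4 in mesenchyme, and Col16a1 was 74.6 and 88.8 in cartilage and 29.4 and 24.5 in mesenchyme. Each pair overlapped the control values of the same type. Col22a1 in reference mesenchyme was 10.9 in GOF replicate 1 and 3.63 in GOF replicate 2. In the same 2 regions the tendon and ligament sum was 457 and 67.99 and the blood sum 63.6 and 800, while the sum of 11 skeletal muscle markers was 1393 and 965. The muscle sum was between 44.2 and 76.1 outside reference mesenchyme. Whether these sums bear on Col22a1 was not tested.

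The fusion regions were then set against the other types. Col16a1 was 50.9 and 57.3 in fusion, against 24.2 and 28.3 in GOF space and 24.2 and 26.9 in control space. No animal overlapped. The difference was 1.00 from GOF space (SE 0.18, adjusted p = 0.0211 in limma) and 1.02 from control space (SE 0.19, adjusted p = 0.00624). Fusion and GOF border-zone cartilage (49.7 and 58.5) differed by -0.01 (95% interval -0.39 to 0.37). The chondrocyte sum was 3863 and 4615 in fusion, 1047 and 1357 in GOF space and 4825 and 6227 in GOF border-zone cartilage, and its part in the Col16a1 difference was not tested.

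In limma, Col16a1 was the only one of the 4 called against GOF space, where 0.222% of all targets were called, and the only one called against control space, where 0.729% were. Leaving out any 1 of the 4 animals ended both calls. Against GOF space the adjusted p was then 0.122 without control replicate 1, 0.122 without control replicate 2, 1 without GOF replicate 1 and 0.666 without GOF replicate 2. Against control space it was 0.294, 0.112, 0.0836 and 0.172 in the same order. The log2 differences stayed between 0.933 and 1.11.

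Col12a1 in fusion was 84.6 and 88.2. These values stood above GOF space (44.9 and 64.9), GOF perichondrium (55.03 and 63.2) and GOF border-zone cartilage (41.3 and 40.6), and just below control space (99.01 and 90.2). The differences were 0.65 from GOF space (SE 0.22, adjusted p = 0.856), 0.49 from GOF perichondrium (SE 0.22, adjusted p = 1), 1.07 from GOF border-zone cartilage (SE 0.22, adjusted p = 0.242) and -0.20 from control space (95% interval -0.67 to 0.27). Averaged over all its regions, fusion thus held Col12a1 at a level near that of control space and Col16a1 near that of border-zone cartilage. Its regions with and without the general interzone tag differed in both genes, as given below. The comparison of fusion with control space and that of GOF space with control space share the control animals.

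Col14a1 in fusion differed between animals, at 11.7 and 19.4, against 5.89 and 5.85 in GOF space. Both fusion means were higher, by 0.90 on the log2 scale (SE 0.25, adjusted p = 0.292 in limma). Against control space (9.20 and 9.20) the difference was 0.33 (SE 0.25, adjusted p = 1). Col22a1 was 4.47 and 4.82 in fusion, 1.49 and 2.15 times the negative probe, below both control space means (10.2 and 6.68), with a difference of -0.74 (SE 0.37, adjusted p = 1).

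No target was called between fusion and GOF perichondrium in limma (0%, with 204 at an unadjusted p under 0.05 and with 1.47%, 0.734% and 0.739% called by the joint-region fit, edgeR and DESeq2). The largest difference of the 4 collagens there was 0.60 for Col16a1 (SE 0.18, adjusted p = 1). Between fusion and GOF border-zone cartilage limma called 0.0103% of all targets and none of the 4. The joint-region fit called 1.19% of all targets there, with Col12a1 among them (adjusted p = 6.47e-08).

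Against GOF space the joint-region fit called 4.57% of all targets and Col12a1, Col14a1 and Col16a1. The edgeR test called 2.17% of all targets and the same 3 genes (Col14a1 1.47, adjusted p = 1.62e-05). Against control space the joint-region fit called 5.21% of all targets, with Col16a1 higher and Col22a1 lower (adjusted p = 0.0113). The edgeR test called 4.15% there, with Col14a1 higher (0.84, adjusted p = 0.0032) and Col22a1 lower (-0.87, adjusted p = 0.00412) beside Col16a1.

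The fusion regions were not alike. Of the 17, 11 also carried the general interzone tag. Col14a1 without that tag read 21.5 in GOF replicate 1 (3 regions, 16.9 to 27.2) and 36.8 in GOF replicate 2 (3 regions, 16.3 to 47.4). With the tag it read 6.76 (6 regions, 2.18 to 12.7) and 8.91 (5 regions, 2.72 to 19.6). The ranges did not overlap in GOF replicate 1, and 1 tagged region of GOF replicate 2 exceeded the lowest untagged one.

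Col12a1 and Col16a1 were also higher in the untagged fusion regions. Col12a1 was 114.2 and 111.5 without the tag and 69.9 and 74.3 with it, and Col16a1 was 63.8 and 72.6 against 44.4 and 48.1. Col22a1 was 4.20 and 2.76 against 4.596 and 6.06, near background in both. The single regions of Col12a1 and Col22a1 overlapped between tagged and untagged in both animals, and those of Col16a1 in GOF replicate 1.

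With the tagged fusion and perichondrium regions left out, limma called Col14a1 higher in fusion than in control space (1.51, adjusted p = 0.00138, where 1.42% of all targets were called) and Col16a1 with it. Against GOF space it called Col14a1 (2.08, adjusted p = 7.98e-05), Col12a1 (1.10, adjusted p = 0.0132) and Col16a1, with 0.801% of all targets called. Against GOF perichondrium it called Col14a1 (1.45, adjusted p = 0.00636) and Col16a1 (0.98, adjusted p = 0.0161), with 0.367% of all targets. Against GOF border-zone cartilage it called Col14a1 (1.56, adjusted p = 0.00607) and Col12a1 (1.52, adjusted p = 0.00211), with 0.15% of all targets. These fits rest on 3 fusion regions in each of 2 animals. Every inter-joint space region carried the interzone tag and stayed in the fit. Against space, a difference of fusion therefore cannot be told apart from one of untagged from tagged regions.

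**Figure D3:**
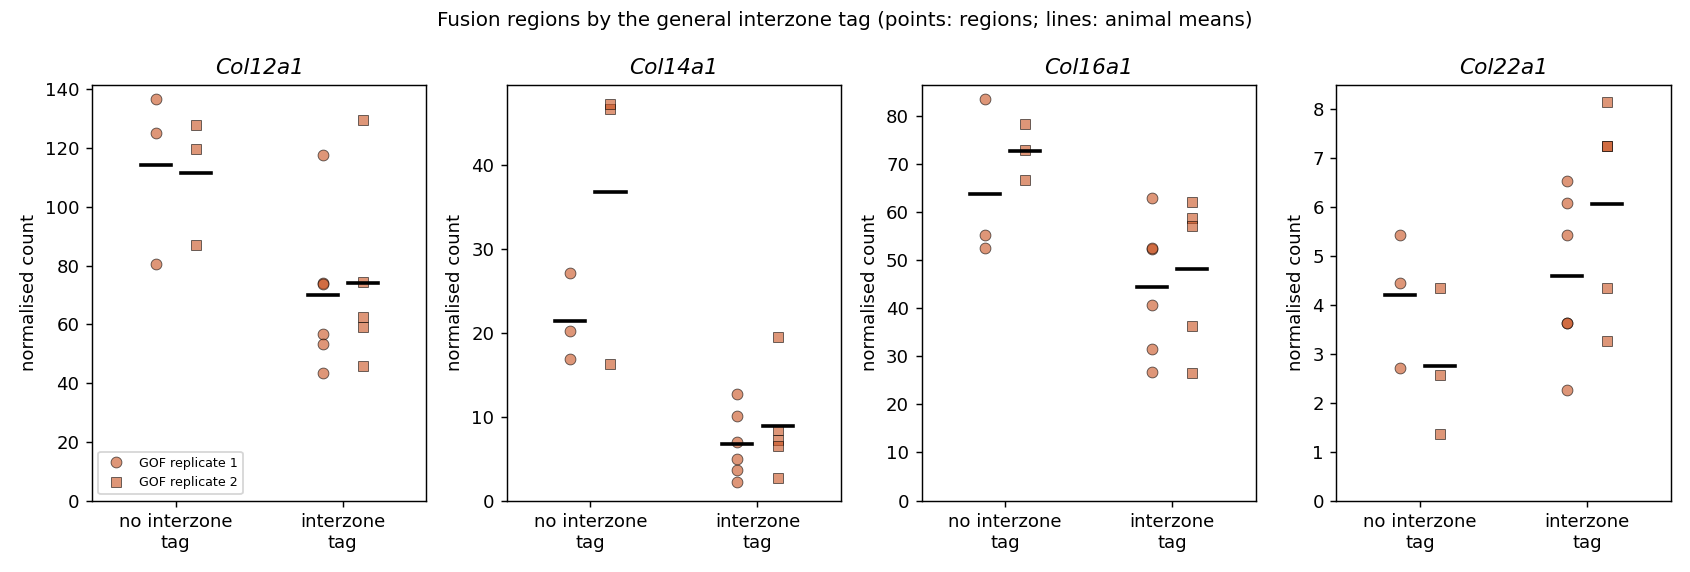
Normalised counts of the 4 collagens in the 17 fusion regions, split by whether the region also carries the general interzone tag (circles GOF replicate 1, squares GOF replicate 2; lines are animal means). Col14a1 means are 21.5 and 36.8 without the tag and 6.76 and 8.91 with it.

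Among the FACIT family, 9 of 10 listed genes were measured, and Col21a1 was not analysed here. Between control space and border-zone cartilage, limma called Col12a1 higher and Col16a1, Col9a1, Col9a2 and Col9a3 lower, with a median log2 difference of -0.43 over the 9, against 0.03 over all targets. Col9a1 fell by 2.80, Col9a2 fell by 2.14 and Col9a3 fell by 2.53 in that comparison. Their mean control levels were 123.7, 504 and 568 in border-zone cartilage, 38.1, 229 and 238 in perichondrium, and 17.1, 119.3 and 108.5 in space. In reference cartilage they reached 297, 988 and 1172, and in reference mesenchyme 10.3, 51.9 and 30.7. GOF means ran in the same order, from 208, 910 and 999 in reference cartilage through 83.2, 458 and 544 in border-zone cartilage and 30.7, 196 and 219 in perichondrium to 18.6, 119.6 and 115.8 in space.

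In fusion the collagen IX means were 60.5, 381 and 548, and the genes were called higher there than in control space, by 1.60, 1.64 and 2.36. Col16a1 was thus called in the direction of collagen IX in both comparisons. Col19a1 and Col20a1, other FACIT genes, stayed between 4.47 and 6.57 normalised counts on average in the joint types and fusion, near background. No gene of the family was called by limma between genotypes in any joint region type.

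Fibril-forming collagens were set beside them. Of 6 fibril collagens of fibrous tissue, 3 were called higher by limma in control space than in border-zone cartilage: Col5a2 (2.17), Col5a1 (1.19) and Col3a1 (0.98). Col5a1 and Col5a2 encode chains of collagen V, which starts fibril assembly, and Col3a1 that of collagen III. Between genotypes in space all 6 had lower GOF means and limma called 1, where 0.103% of all targets were called: Col5a2, by -1.12 (adjusted p = 0.0148), with a median of -0.68 over the 6 against -0.04 over all targets. The call of Col5a2 was lost with any 1 of the 4 animals left out (adjusted p from 0.158 to 0.559). In fusion against GOF space 1 was called higher (Col1a2, 1.11, a chain of collagen I), and against control space 1 was called lower (Col5a1, -0.86).

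Of the 4 cartilage fibril collagens (Col2a1, Col11a1, Col11a2 and Col27a1), all were called lower by limma in control space than in border-zone cartilage and all higher in fusion than in control space, from 1.43 to 2.30. None was called by limma between genotypes. Col16a1 went with them in direction in both comparisons, and Col12a1 went the other way in the first.

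Of 31 fibril-associated partners (small proteoglycans, microfibril proteins, crosslinking enzymes and the like), limma called 6 higher and 5 lower in control space than in border-zone cartilage. The largest were Thbs1 (-2.50) and Postn (2.22), followed by Tgfbi (2.17) and Fbn2 (2.06). Between genotypes in space limma called 2 (against 0.103% of all targets), both lower in GOF: Fbn2, a microfibril glycoprotein, by -1.60 (adjusted p = 0.00478) and Postn, periostin, by -1.51 (adjusted p = 0.0442). The median of the 31 was -0.33. The call of Fbn2 held only without control replicate 2, of the 4 fits that left out 1 animal (adjusted p from 0.0275 to 0.531), and that of Postn only without GOF replicate 2 (adjusted p from 0.00777 to 1). In fusion against control space 2 were called higher (Thbs1 1.63 and Prelp 1.13) and 3 lower (Tgfbi -2.60, Fn1 -2.06 and Fbn2 -1.61). Of 7 collagen receptors, Itga10, a cartilage integrin chain, was called lower in control space than in border-zone cartilage (-1.12) and higher in fusion than in control space (1.47), and none was called by limma between genotypes.

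Many calls of these lists between region types also needed all animals. Between control space and border-zone cartilage, 1 of the 5 family calls was left without control replicate 1 and 1 without control replicate 2. For the fibrous fibril collagens 1 of 3 calls was left in each case. The cartilage fibril collagens had 3 and 2 of 4 left, and the partners 3 and 1 of 11. Col9a1, Col2a1, Col11a2, Col5a2 and Fbn2 were called whichever animal was left out, and Col3a1 and Itga10 lost their call whichever animal was left out. Between fusion and control space, none of the 4 family calls was left without control replicate 1, nor any without control replicate 2, and 3 and 2 were left without GOF replicates 1 and 2. Col2a1 and Col11a2 were called there whichever animal was left out, and Fn1 in most such fits. Itga10, Col5a1 and Prelp lost their call whichever animal was left out.

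**Figure D4:**
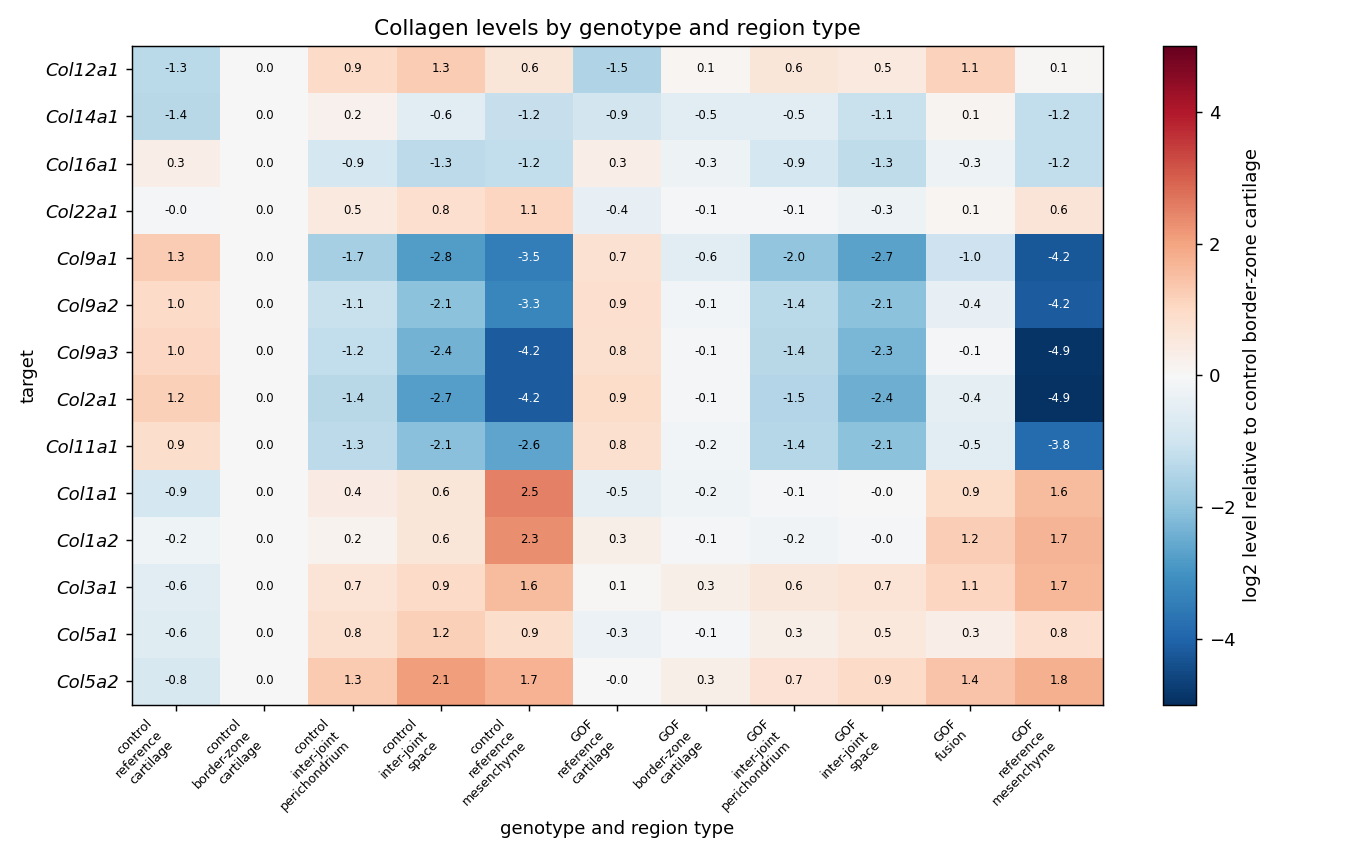
Mean levels of the 4 collagens, the collagen IX genes and fibril-forming collagens by genotype and region type, as log2 of (level + 1) relative to control border-zone cartilage, n = 2 animals per column. The Col12a1 row is positive in control space (1.3) and fusion (1.1), and the Col16a1 row is positive in reference cartilage alone (0.3).

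The 4 collagens did not vary together. Over the 22 animal and region type means, which share animals, sections and the contrast of cartilage with soft tissue, Pearson's r of log2(value + 1) was -0.71 between Col12a1 and Col16a1, 0.47 between Col12a1 and Col22a1 and 0.44 between Col12a1 and Col14a1. It was -0.45 between Col16a1 and Col22a1, 0.07 between Col14a1 and Col16a1 and -0.10 between Col14a1 and Col22a1.

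The targets most like each collagen were taken as the 5 highest correlations over the same 22 means, among targets above 2 times the negative probe. For Col12a1 they were Fbn2 (0.90), Sertad4 (0.89), Gas1 (0.89), Cacna1g (0.88) and Nfib (0.87). For Col16a1 they were Msi2 (0.98), Extl1 (0.97), Thbs1 (0.95), Rap1gap (0.95) and Chadl (0.95). The values for Col14a1 were lower, led by Aopep (0.78), Gm45915 (0.76), Uxs1 (0.75), Stx16 (0.74) and Igfbp7 (0.71). For Col22a1 they were Palld (0.86), Rhoq (0.85), Tgfb3 (0.83), Ammecr1 (0.82) and Lpar1 (0.81). These correlations are descriptions of where RNA lay, over means that are not independent.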

How the data were processed

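GeoMx libraries of 4 animals were analysed. The authors deposited signal values, which are counts per target that were upper-quartile scaled region by region, per the file headers. Seurat and mm10 come from the submitters' processing notes, with the counting pipeline not given in the sources used here. Whole counts were recovered from 99.98% of values (tolerance 0.01 count). One control region whose tag was misspelled was counted as inter-joint space.

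Log2(value + 1) was averaged per animal and region type (22 means) and fitted over 19346 targets with limma 3.58.1 in R 4.3.3 (lmFit, trended eBayes) and animals as random blocks (correlation 0.0258, 11 residual degrees of freedom). P values were adjusted by Benjamini-Hochberg within each contrast, with calls under 0.05. Limma p values set a difference against a spread pooled over the 22 means of these samples and across targets (9.95 prior degrees of freedom). With a block correlation of 0.0258, region types of the same animal counted as nearly independent. Genotype p values therefore do not rest on the spread between animals of a genotype alone. Reference types got no test. edgeR 4.0.16 and DESeq2 1.42.0 were run on recovered counts, summed per animal and type. These count tests had no term for the animal, so they took region types of the same animal as independent. The joint-region fit left out the reference regions and had 7 residual and 33.19 prior degrees of freedom. Its small p values thus rest largely on spread shared across targets. Other alternatives varied the pseudocount, scaling, low filter, background subtraction, averaging, tagged regions and animals. The fit was also run on simulated counts drawn without an animal effect, so that run does not bear on the spread between animals. Positions came from RefSeq.

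The members and lists were chosen with earlier results of these data known. Named genes were the 4 members, collagen IX genes, up to 4 called genes per list and comparison with the largest differences, and the 5 most correlated targets.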

Additional observations from a re-analysis of the deposited data

Results flagged for a closer look

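For Col12a1 both GOF animals lay slightly above both controls in border-zone cartilage (41.3 and 40.6 against 36.7 and 40.3) and below both in perichondrium and in inter-joint space. Of all targets, 15.08% lay above in this way in border-zone cartilage, and 23.7% and 21.3% lay below in perichondrium and in space. The difference of Col12a1 in border-zone cartilage was 0.08 (95% interval -0.39 to 0.55), so no difference was shown there. The effect in space minus that in border-zone cartilage was -0.931, and the effect in perichondrium minus that in border-zone cartilage was -0.408. In limma neither test of the difference passed after adjustment over all targets (adjusted p = 1 for both).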

How the results depend on the processing

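The direction and side of the threshold were recomputed for each collagen and comparison under each alternative. No value called in the main setting changed sign or lost its call, except when an animal was left out. The joint-region fit and the count tests called more targets: between genotypes in space they called 2.69% (joint-region fit), 1.86% (edgeR) and 2% (DESeq2) of all targets against 0.103% in the main setting, and for fusion minus control space 5.21%, 4.15% and 4.74% against 0.729%. The causes of the changes below were not tested. Values are log2 differences. Beyond the shares given above, the joint-region fit called 5.37% of all targets for GOF space minus border zone. For GOF perichondrium minus border zone it called 1.86%. For edgeR and DESeq2 the share of all targets is given for some comparisons only, so their other calls below cannot be set against one.

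In the joint-region fit the threshold was also passed for genotype in space (Col12a1 -0.85, Col14a1 -0.57, Col22a1 -1.17), genotype in perichondrium (Col14a1 -0.614), control space minus border zone (Col22a1 0.884), control perichondrium minus border zone (Col12a1 0.992, Col16a1 -0.882), control space minus perichondrium (Col14a1 -0.642, Col16a1 -0.435), GOF space minus border zone (Col12a1 0.424, Col14a1 -0.526), GOF perichondrium minus border zone (Col12a1 0.584, Col16a1 -0.607), GOF space minus perichondrium (Col14a1 -0.597), fusion minus GOF space (Col12a1 0.647, Col14a1 0.897), fusion minus GOF perichondrium (Col12a1 0.487, Col16a1 0.595), fusion minus GOF border zone (Col12a1 1.07), fusion minus control space (Col22a1 -0.742) and genotype effect in space minus border zone (Col12a1 -0.931, Col22a1 -1.13). With edgeR on summed counts the threshold was also passed for genotype in space (Col12a1 -0.832, Col22a1 -1.15), genotype in perichondrium (Col14a1 -0.681), control space minus border zone (Col14a1 -0.637, Col22a1 0.902), control perichondrium minus border zone (Col12a1 0.898, Col16a1 -0.895), control space minus perichondrium (Col14a1 -0.789), GOF perichondrium minus border zone (Col16a1 -0.645), fusion minus GOF space (Col12a1 0.758, Col14a1 1.47), fusion minus GOF perichondrium (Col14a1 0.728, Col16a1 0.657), fusion minus GOF border zone (Col12a1 1.02) and fusion minus control space (Col14a1 0.836, Col22a1 -0.869). With DESeq2 the threshold was also passed for genotype in space (Col12a1 -0.829, Col22a1 -1.16), control space minus border zone (Col22a1 0.906), control perichondrium minus border zone (Col12a1 0.899, Col16a1 -0.895), GOF perichondrium minus border zone (Col16a1 -0.642), fusion minus GOF space (Col12a1 0.763, Col14a1 1.54), fusion minus GOF perichondrium (Col16a1 0.661), fusion minus GOF border zone (Col12a1 1.03) and fusion minus control space (Col14a1 0.91, Col22a1 -0.867). Without interzone-tagged perichondrium and fusion regions the threshold was also passed for fusion minus GOF space (Col12a1 1.1, Col14a1 2.08), fusion minus GOF perichondrium (Col14a1 1.45, Col16a1 0.982), fusion minus GOF border zone (Col12a1 1.52, Col14a1 1.56) and fusion minus control space (Col14a1 1.51). With medians over regions the threshold was also passed for control perichondrium minus border zone (Col16a1 -0.878, 0.202% of all targets called). With total-count scaling the threshold was also passed for control perichondrium minus border zone (Col12a1 1.02, Col16a1 -0.851, 0.243% of all targets). With the low filter the threshold was also passed for control perichondrium minus border zone (Col16a1 -0.882, 0.506% of the targets kept). With a pseudocount of 5 the threshold was also passed for control perichondrium minus border zone (Col16a1 -0.811, 0.264% of all targets).

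With edgeR on summed counts the sign turned for genotype in space (Col16a1 -0.0486), genotype in perichondrium (Col16a1 0.0254), fusion minus GOF border zone (Col16a1 0.0122) and genotype effect in space minus perichondrium (Col16a1 -0.0739). With DESeq2 the sign turned for genotype in space (Col16a1 -0.0449), genotype in perichondrium (Col16a1 0.0282), fusion minus GOF border zone (Col16a1 0.0192) and genotype effect in space minus perichondrium (Col16a1 -0.0731). Without interzone-tagged perichondrium and fusion regions the sign turned for fusion minus GOF perichondrium (Col22a1 -0.0849), fusion minus GOF border zone (Col16a1 0.372, Col22a1 -0.138) and fusion minus control space (Col12a1 0.248). With medians over regions the sign turned for genotype in space (Col16a1 -0.13), control perichondrium minus border zone (Col14a1 -0.0916), GOF perichondrium minus border zone (Col22a1 0.0872), fusion minus GOF border zone (Col16a1 0.037), genotype effect in space minus border zone (Col14a1 0.222), genotype effect in perichondrium minus border zone (Col14a1 0.152) and genotype effect in space minus perichondrium (Col16a1 -0.114). With the negative probe subtracted the sign turned for genotype in perichondrium (Col16a1 0.0021), GOF perichondrium minus border zone (Col22a1 0.0747) and genotype effect in space minus perichondrium (Col14a1 -0.12). With total-count scaling the sign turned for genotype in perichondrium (Col16a1 0.024) and genotype effect in space minus perichondrium (Col16a1 -0.00054). None of these values with a turned sign passed the threshold in either setting.

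The labels link same-numbered control and GOF animals by that number alone. The correlation of their deviations was 0.104, and the other pairing gives -0.104 by construction with 2 animals per genotype. This value cannot show or exclude a shared batch. With that number as a replicate block, Col16a1 in control perichondrium minus border zone passed (-0.882, 0.217% of all targets called), and no other call changed. Col22a1 has no value under the low filter. With 1 animal left out, calls were lost for Col12a1 control space minus border zone (1.21 to 1.5), Col16a1 control space minus border zone (-1.32 to -1.31), Col16a1 fusion minus GOF space (0.982 to 1.02), Col16a1 fusion minus control space (0.933 to 1.11), Col16a1 GOF space minus border zone (-1.05 to -0.974), as ranges over the 4 animals left out. The sign was unstable for Col16a1 genotype in space (-0.0798 to 0.124), Col16a1 genotype in perichondrium (-0.21 to 0.196), Col14a1 genotype effect in space minus perichondrium (-0.113 to 0.202), Col22a1 GOF space minus border zone (-0.528 to 0.0285), Col22a1 GOF space minus perichondrium (-0.578 to 0.162), Col16a1 genotype effect in space minus perichondrium (-0.0718 to 0.131), Col22a1 genotype in border zone (-0.0816 to 0.00371), Col22a1 GOF perichondrium minus border zone (-0.134 to 0.0502), Col16a1 fusion minus GOF border zone (-0.0681 to 0.0447), Col14a1 genotype effect in space minus border zone (-0.28 to 0.0878). Background limits Col22a1 and, most of all in reference regions and GOF inter-joint space, Col14a1, with its genotype and fusion differences against that space. Col14a1 also lay under 2 times the negative probe in 7 of 31 GOF border-zone regions, 5 of 26 GOF perichondrium regions and 4 of 17 fusion regions. The 2 animals per genotype limit every test.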
